A study of Mus musculus with 4 samples.

Results

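The genes described here are the enzymes, transporters and regulators of glycolysis together with genes that low oxygen induces, compared between bladder epithelial colonies lacking p63 and wild-type colonies. The members were chosen from a fixed list of 40 gene symbols, and 34 of them had a transcript cluster (a gene-level probe group of the array) annotated to that symbol alone, out of 23332 clusters. No member had more than 1 such cluster. Ero1l was found under its newer symbol Ero1a. Gpi1, Gapdh, Pgk1, Pgam1, Eno1 and Ldha had no such cluster and were not analysed here, so most enzymes between triose phosphate and lactate are missing. Both groups were epithelial stem cell cultures from bladder of newborn C57BL/6j pups. They grew on a feeder layer of 3T3 cells, which are themselves mouse fibroblasts, and colonies were picked for RNA. The knockout group came from p63 knockout pups and the control group from wild-type pups, with 2 Affymetrix exon arrays in each group and no treatment named in the labels. The labels name neither the disrupted part of the p63 gene, Trp63, nor whether the 2 arrays of a group came from separate animals, so p-values measure the spread between these arrays, which may be technical.

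Glycolysis splits glucose into pyruvate in the cytosol, and pyruvate then either enters mitochondria through pyruvate dehydrogenase or is reduced to lactate and exported. When oxygen falls, the prolyl hydroxylases that mark the alpha subunits of hypoxia-inducible factor (HIF) for destruction slow down, HIF accumulates, and it binds a short core sequence near genes for glucose uptake, glycolysis, blood vessel growth, acid handling and mitophagy. Several HIF targets, among them the hydroxylase gene Egln3, feed back on the pathway, and many of these genes also respond to growth factors and to Myc without any change in oxygen.

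Values are log2 intensities as deposited. Array medians ran from 5.08 to 5.13, and the correlation between the arrays of a group was 0.98 in the wild type and 0.93 in the knockout. Trp63 read 4.60 and 4.74 on the knockout arrays and 8.98 and 8.99 on the wild-type arrays. Of 10 measured general epithelial markers, 6 were lower in the knockout and 2 higher without overlap, with 0 past the adjusted threshold. Among the 6, Krt18 read 10.73 and 10.63 in the knockout against 11.30 and 11.32, and Krt19 read 9.45 and 8.60 against 10.43 and 10.39. The 2 higher ones, named after their values were seen, were Cldn7 (9.18 and 8.86 against 8.49 and 8.44) and Epcam (8.92 and 8.77 against 8.55 and 8.56). Of 7 superficial urothelial markers 5 fell past the adjusted threshold, 6 were lower without overlap and the median was -4.07. Upk1a read 5.07 and 5.41 against 11.51 and 11.73, whereas Krt20 was higher, at 9.64 and 8.72 against 7.04 and 7.13. Of 8 basal markers 6 fell and 7 were lower without overlap, with a median of -3.22. Over all clusters 20.9% were lower and 36.2% higher without overlap, and 0.527% passed the adjusted threshold in either direction. The 95th percentile of 719 olfactory receptor clusters, 5.08, is used below as the level of silent genes.

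None of the 34 members passed an adjusted p of 0.05 in limma, where 0.527% of all clusters did, and the members' adjusted p-values ran from 0.093 to 0.94. Without adjustment, 8 members were lower in the knockout at p under 0.05 and 2 were higher. The same rule held for 7.7% of all clusters downward and 14.6% upward. Because 27 of the 34 members lay at or above the median level of all clusters, the brighter clusters are the closer background: there 11.7% were lower and 9.93% higher at that threshold, and all 8 lower members and 1 of the 2 higher ones were among those 27. With a mean-variance trend in the fit, another variance model, 9 members were lower and 3 higher at unadjusted p under 0.05. The shares of all clusters in that fit were 8.45% and 13.7%, and again 0 members passed the adjusted threshold. Leaving out 1 array at a time gave 9 lower and 4 higher members when it was knockout array 1, beside 10.3% and 17.9% of all clusters, and 9 and 3 when it was knockout array 2, beside 9.49% and 16.5%. It gave 4 and 0 when it was wild-type array 1, beside 3.57% and 5.53%, and 6 and 0 when it was wild-type array 2, beside 3.63% and 6.56%, so the counts moved for the whole array as well as for the members.

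Both knockout arrays lay below both wild-type arrays for 15 members, above them for 8, and the groups overlapped for 11. Over all clusters the shares without overlap were 20.9% lower and 36.2% higher, and over the brighter clusters 30.6% and 27.7%; of the 27 brighter members 13 were lower and 5 higher without overlap. A difference of -1 log2 unit or less was seen for 4 members, against 3.93% of all clusters, and a difference of 1 or more for none, against 7.59%. The median difference of the members was -0.21, that of all clusters 0.12 and that of the brighter clusters -0.02. After quantile normalization, which brought the median of all clusters to 0.0029, the members' median was -0.23. Without wild-type array 1 it was -0.10, beside 0.11 for all clusters. Among the members the median gap between arrays of a group was 0.33 for the knockout against 0.15 for the wild type, and over all clusters it was 0.31 and 0.18. For 15 members the gap between the 2 knockout arrays was larger than the difference between the groups.

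**Figure D1:**
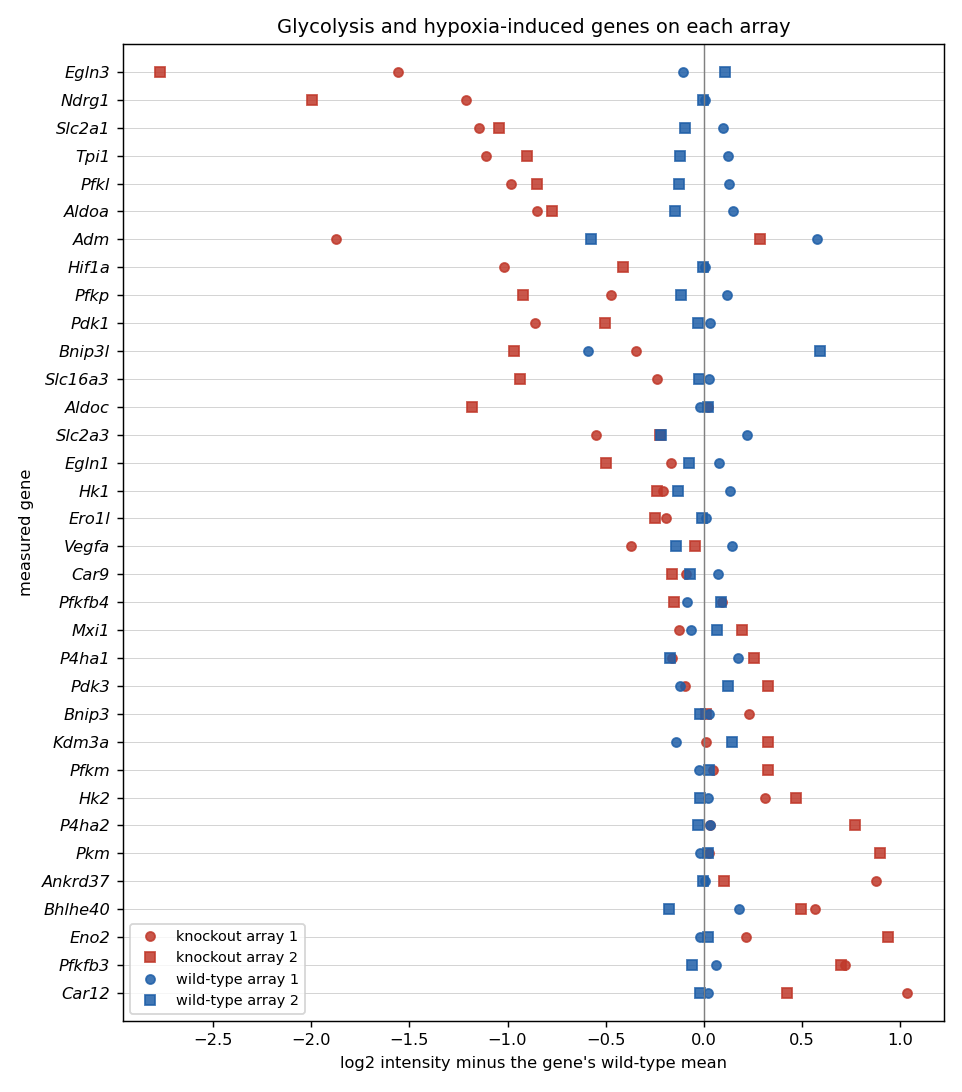
Each row is a measured gene, ordered by its knockout minus wild-type difference, and each point is 1 array, plotted as log2 intensity minus the mean of the 2 wild-type arrays (red, knockout; blue, wild type; circles, array 1; squares, array 2). The 6 topmost genes have both knockout points well to the left of the wild-type points, while in the middle rows the colours mix.

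Promoter sequences are shown for 4 members because they span the range of the glycolytic and feedback responses: Slc2a1 and Tpi1, the lower glycolysis genes with the largest differences, Egln3, the member with the largest difference of all, and Pfkfb3, the glycolysis gene with the largest difference upward. Each is a RefSeq window of 300 bases on build GRCm38.p6, from 250 bases before to 50 after a start of the gene, read 5′ to 3′ on the gene's strand. Capitals mark the core of the HIF response element, ACGTG or GCGTG, on either strand, so CACGT and CACGC are also in capitals. The Slc2a1 window lies at chr4:119108495-119108794 on the plus strand, the Tpi1 window at chr6:124814109-124814408, the Egln3 window at chr12:54203825-54204124 and the Pfkfb3 window, 1 of 2 of that gene in the table, at chr2:11502041-11502340, the last 3 on the minus strand.
Slc2a1: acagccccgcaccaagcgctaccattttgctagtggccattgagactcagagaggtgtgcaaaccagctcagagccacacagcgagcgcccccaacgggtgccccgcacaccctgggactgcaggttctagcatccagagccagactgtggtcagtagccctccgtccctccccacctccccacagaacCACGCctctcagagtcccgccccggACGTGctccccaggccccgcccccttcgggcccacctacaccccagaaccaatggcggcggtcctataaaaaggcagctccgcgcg
Tpi1: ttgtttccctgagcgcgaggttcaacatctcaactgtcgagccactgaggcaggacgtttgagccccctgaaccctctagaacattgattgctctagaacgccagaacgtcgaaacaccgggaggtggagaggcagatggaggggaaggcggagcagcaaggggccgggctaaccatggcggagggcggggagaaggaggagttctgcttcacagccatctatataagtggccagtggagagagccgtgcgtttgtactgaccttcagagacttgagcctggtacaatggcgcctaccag
Egln3: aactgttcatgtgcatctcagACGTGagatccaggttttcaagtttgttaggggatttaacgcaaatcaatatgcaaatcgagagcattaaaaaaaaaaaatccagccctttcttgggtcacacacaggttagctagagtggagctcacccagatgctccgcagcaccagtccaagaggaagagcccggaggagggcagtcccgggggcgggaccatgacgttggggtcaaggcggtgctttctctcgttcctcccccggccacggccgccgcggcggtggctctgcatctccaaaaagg
Pfkfb3: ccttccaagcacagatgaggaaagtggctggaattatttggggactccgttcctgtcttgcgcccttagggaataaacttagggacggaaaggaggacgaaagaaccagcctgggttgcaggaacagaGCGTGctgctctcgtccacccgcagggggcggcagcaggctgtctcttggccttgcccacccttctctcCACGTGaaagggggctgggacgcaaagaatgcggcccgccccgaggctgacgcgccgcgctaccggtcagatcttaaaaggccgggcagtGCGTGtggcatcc

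The Slc2a1 window held ACGTG beginning 36 bases before the start and the reverse of GCGTG at 61 bases before it. The Tpi1 window held neither. The Egln3 window held a single ACGTG at 229 bases before the start. The Pfkfb3 window shown held ACGTG on both strands of 1 palindrome, CACGTG, which is also an E-box, at 53 bases before the start. It also held 2 copies of GCGTG. The other Pfkfb3 window, not shown, held 1 ACGTG at 60 bases before its start and no GCGTG or CACGTG. Windows were available for 30 of the 34 measured members. ACGTG was present in 25 of their 45 windows, or 55.6%, against 19.6% of all 32851 promoter windows of the same length. The members' windows had a median GC content of 62.0% and all windows 52.7%. GCGTG was present in 46.7% of the members' windows and 32.4% of all. Among windows with a GC content of 60% or more, GCGTG was in 53.8% of the members' 26 and 59.2% of all. There ACGTG was in 73.1% of the members' windows and 26.5% of all. The members include many genes known as HIF targets, so the share of ACGTG describes how the list was drawn up. ACGTG was in a window of 9 of the 13 genes that were lower without overlap (69.2%) and of 12 of the other 17 (70.6%). The other 17 include overlapping genes of either sign, and the difference was not tested. Pkm is among those 12, although the annotation of its cluster, described below, is in doubt. The palindrome CACGTG, the E-box that Myc and related factors bind, was in 8.89% of the members' windows and 7.15% of all. A match is a run of letters in this window and not a measured binding site.

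Of the 2 measured glucose transporters, Slc2a1 was lower with clear separation of the groups, and Slc2a3 was in the range of silent genes. Slc2a1, the main glucose transporter of most cultured cells, read 6.85 and 6.96 on the knockout arrays and 8.10 and 7.90 on the wild-type arrays. The arrays of each group lay close together and the groups were well separated, a 2.13-fold difference (log2 difference -1.09, SE 0.18, adjusted p = 0.093). It was the member with the smallest adjusted p, and it passed when clusters below the median level were left out of the fit (adjusted p = 0.044), with a range of 0.044 to 0.52 over all alternatives. Slc2a3, a high-affinity glucose transporter best known from neurons, was at 3.72 ± 0.23 and 4.10 ± 0.31 (mean ± SD, knockout then wild type here and below, n = 2 per group), in the range of silent genes. Its groups were barely separate, with knockout array 2 at 3.879 and wild-type array 2 at 3.883.

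Among the enzymes from glucose to triose phosphate, 6 of 8 measured members had a negative difference, 5 of them without overlap, and 4 had an unadjusted p under 0.05, where 30.6% and 11.7% of the brighter clusters were lower by these rules. Tpi1, triose phosphate isomerase, read 9.50 and 9.71 in the knockout against 10.73 and 10.49. This was a 2.01-fold difference with clear separation of the groups (95% interval of the log2 difference -1.53 to -0.48, adjusted p = 0.11). Aldoa, the main aldolase, read 11.31 and 11.39 against 12.31 and 12.01. Its difference was 1.76-fold (log2 -0.81, SE 0.19, adjusted p = 0.14). Aldoc, another aldolase, read 6.29 on knockout array 1, level with the wild-type arrays at 6.25 and 6.29, and 5.09 on knockout array 2.

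Phosphofructokinase, the committed step of glycolysis, has a liver-type, a platelet-type and a muscle-type subunit, and these did not share a direction. Pfkl, the liver type, read 5.53 and 5.66 in the knockout against 6.64 and 6.38 (1.89-fold lower, log2 -0.92, SE 0.19, adjusted p = 0.12). Pfkp, the platelet type, read 7.02 and 6.57 against 7.61 and 7.37 (1.62-fold lower, log2 -0.70, SE 0.24, adjusted p = 0.21). Both groups were separate for both genes. Pfkm, the muscle type, was at 6.34 ± 0.20 and 6.16 ± 0.03. As a ratio on the same array, Pfkl over Pfkm was 1.03 and 1.18 log2 units below its wild-type mean on the knockout arrays, while the wild-type arrays lay within 0.15 of that mean. Pfkp over Pfkm differed by -0.88 without overlap, and Pfkl over Pfkp by -0.22 with overlap. Such within-array ratios do not depend on how the arrays were scaled against each other by a constant, and they show only that the subunits differed unequally.

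Hexokinase, which traps glucose in the cell, showed small differences in opposite directions. Hk1 was at 6.18 ± 0.02 and 6.40 ± 0.19 and Hk2, the hypoxia-inducible form, at 6.85 ± 0.11 and 6.46 ± 0.03. Hk1 over Hk2 was 0.61 log2 units lower in the knockout, with no overlap. Ratios were formed for 12 pairs of family members, and 9 of the 12 had no overlap, so a lack of overlap was the usual outcome. Several pairs hold a gene at the level of silent genes, and only the ratios of hexokinase and phosphofructokinase are given. With 2 arrays against 2 an exact permutation test cannot give a two-sided p below 0.33, so no test was made of these ratios.

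The enzymes that make and remove the activator of phosphofructokinase did not share a direction either. Pfkfb3, the inducible and mainly activating form, read 7.22 and 7.20 in the knockout against 6.57 and 6.44. The 2 knockout arrays were nearly identical and both stood above the wild type, a 1.63-fold difference (log2 0.71, SE 0.16, adjusted p = 0.14). Pfkfb4 was at 4.71 ± 0.17 and 4.74 ± 0.12, in the range of silent genes. Pfkfb2, another such enzyme gene outside the members, had a negative difference, as Pfkl and Pfkp did. Its log2 difference was -1.24 (SE 0.18, adjusted p = 0.084), from 7.34 ± 0.04 in the wild type to 6.10 ± 0.18.

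**Figure D2:**
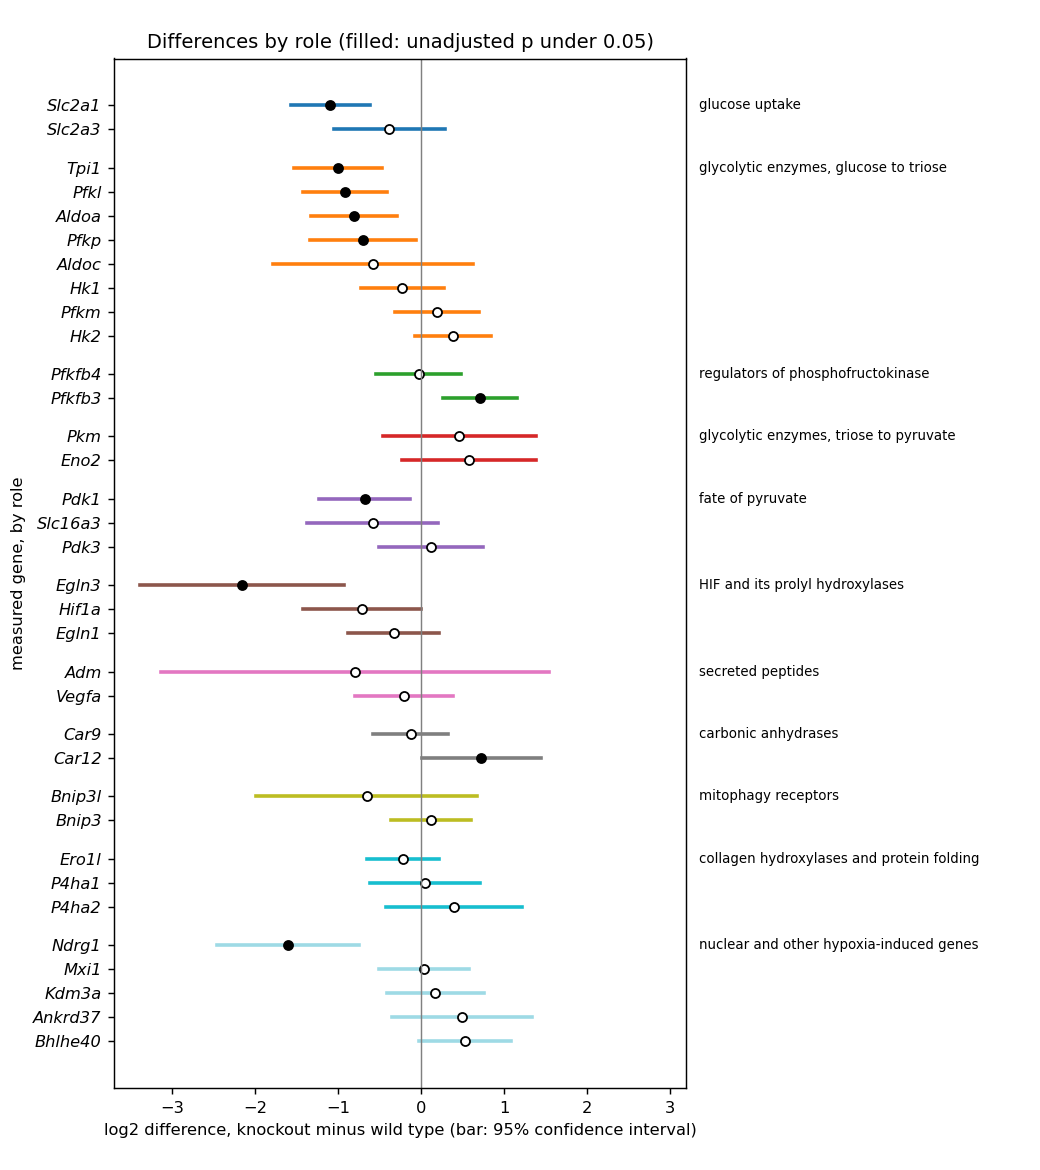
Each row is a measured gene, grouped by role, and shows its log2 difference, knockout minus wild type, with the 95% confidence interval of the limma fit as a bar. Filled points had an unadjusted p under 0.05. Of the filled points, Egln3, Ndrg1, Slc2a1, Tpi1, Pfkl, Aldoa, Pfkp and Pdk1 lie to the left of 0, Pfkfb3 and Car12 to the right.

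Only Eno2 and Pkm represented the reactions from triose phosphate to pyruvate, and neither value describes that stretch well. Eno2, the neuron-type enolase, was at 5.31 ± 0.51 and 4.73 ± 0.03, near the level of silent genes. The cluster annotated to Pkm, the pyruvate kinase of most tissues, read 3.87 and 4.74 in the knockout and 3.82 and 3.86 in the wild type, below that level. RefSeq places Pkm on chromosome 9, but the 20 named clusters nearest to it in cluster number, 10 on each side, are all of genes on chromosome 5. For the other 33 members most of these neighbours were on the gene's own chromosome. The annotation of this cluster is therefore in doubt and its values are not read as those of Pkm. Without it the counts were 15 lower and 7 higher without overlap, and the median was -0.22.

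At the fate of pyruvate, Pdk1, a kinase that switches off pyruvate dehydrogenase and that HIF induces, read 5.40 and 5.76 in the knockout against 6.29 and 6.23. The groups were separate (1.60-fold lower, log2 -0.68, SE 0.20, adjusted p = 0.18). Slc16a3, a lactate exporter, was at 5.14 ± 0.49 and 5.73 ± 0.04, with knockout array 2 the lower of the pair and in the range of silent genes. Pdk3 was at 7.54 ± 0.30 and 7.43 ± 0.17. Pdk4, a pyruvate dehydrogenase kinase known for its induction in fasting and no member of the list, read 8.04 and 8.73 against 5.84 and 6.06 and so differed in the opposite direction to Pdk1 (5.41-fold higher, log2 2.44, SE 0.30, adjusted p = 0.070). It passed only without clusters below the 25th percentile (0.043), without those below the median (0.026) and with a mean-variance trend (0.049). Over the whole array 362, 524 and 303 clusters passed in these fits, against 123 in the fit reported.

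**Figure D3:**
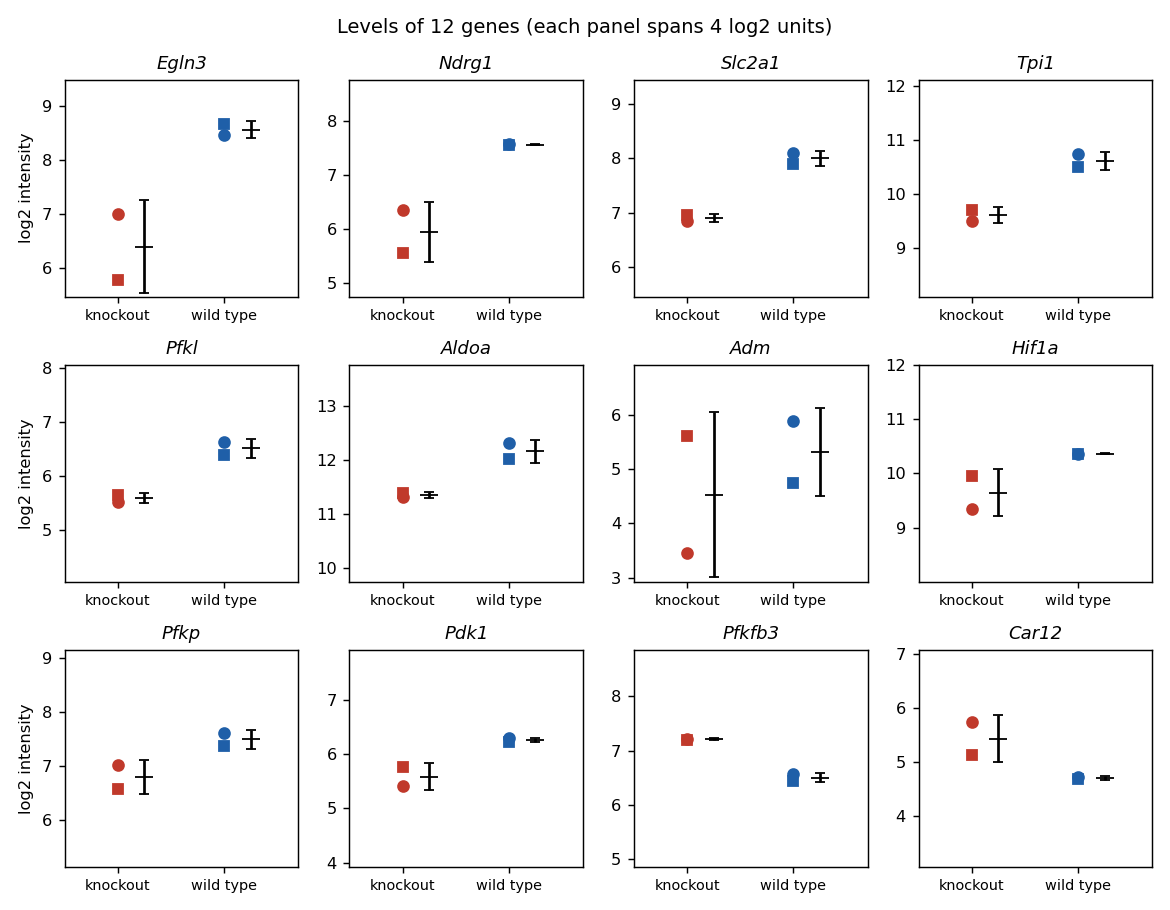
Levels of the 12 members with the largest differences, in log2 intensity on the vertical axes; each coloured point is 1 array (red, knockout; blue, wild type; circles, array 1; squares, array 2) and the black bar beside each group is its mean ± SD. Every panel spans 4 log2 units; Adm is the 1 panel of the 12 in which the groups overlap.

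The HIF side of the list was led by its feedback hydroxylase. Egln3 read 6.999 and 5.79 in the knockout against 8.45 and 8.66, the largest difference of any member at 4.48-fold (log2 -2.16, SE 0.45, adjusted p = 0.12). Both knockout arrays were low, array 2 by 1.21 log2 units more than array 1. Egln1, the hydroxylase that controls HIF in most cells with normal oxygen, was at 7.03 ± 0.23 and 7.36 ± 0.11. Hif1a, the oxygen-regulated subunit itself, read 9.34 and 9.95 against 10.37 and 10.35 (1.64-fold lower, log2 -0.71, SE 0.26, adjusted p = 0.23). HIF1A protein is regulated mainly by its stability, which an array does not measure.

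Ndrg1, a hypoxia- and differentiation-induced cytosolic protein, read 6.35 and 5.56 in the knockout against 7.57 and 7.55. The wild-type arrays were almost equal and both knockout arrays lay more than 1 log2 unit below them (3.04-fold lower, log2 -1.60, SE 0.31, adjusted p = 0.11). Other classical HIF targets had smaller differences. Vegfa, the vascular growth factor, was at 8.05 ± 0.23 and 8.25 ± 0.20, and Car9, a carbonic anhydrase often used as a hypoxia marker, at 4.32 ± 0.05 and 4.45 ± 0.10, in the range of silent genes in both groups. The mitophagy receptor gene Bnip3 was at 8.90 ± 0.16 and 8.78 ± 0.03, and Bnip3l varied within both groups, at 6.06 ± 0.44 and 6.72 ± 0.84. Adm, which encodes the vasodilator peptide adrenomedullin, read 3.45 and 5.61 against 5.90 and 4.75, the lower value of each group in the range of silent genes. Its groups overlapped, and its difference of -0.79 (SE 0.86) became 0.29 without knockout replicate 1.

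Car12, a membrane carbonic anhydrase of epithelia, read 5.74 and 5.13 in the knockout against 4.73 and 4.69. Both knockout arrays stood above the wild type (log2 difference 0.73, SE 0.26, adjusted p = 0.22), whose level was in the range of silent genes, so the size of the difference is not exact. Bhlhe40, a transcriptional repressor of the clock and hypoxia responses, was at 7.17 ± 0.05 and 6.64 ± 0.25, and Ankrd37, an ankyrin repeat protein, at 5.41 ± 0.55 and 4.92 ± 0.01. Both wild-type values of Ankrd37 and that of knockout array 2 were in the range of silent genes. For Kdm3a, a histone demethylase, the means were 7.44 ± 0.22 and 7.28 ± 0.20. The Myc antagonist Mxi1 was at 5.79 ± 0.23 and 5.76 ± 0.09. The enzymes of collagen and protein folding overlapped or lay close: the prolyl hydroxylase subunits P4ha1 at 8.34 ± 0.29 and 8.29 ± 0.24 and P4ha2 at 7.26 ± 0.52 and 6.86 ± 0.05, and the oxidase gene Ero1l at 8.65 ± 0.04 and 8.87 ± 0.02. A p above the threshold with 2 arrays a group does not show that these genes were equal: the 95% interval of the Vegfa difference ran from -0.80 to 0.38 and that of P4ha1 from -0.62 to 0.71.

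Split by side, the 16 measured genes from glucose uptake to the fate of pyruvate, without the cluster annotated to Pkm, had a median difference of -0.48, with 9 lower and 4 higher without overlap. The 17 HIF and hypoxia-induced genes had a median of -0.13, with 6 lower and 3 higher without overlap. Over the brighter clusters 30.6% were lower and 27.7% higher without overlap, so the share of lower HIF and hypoxia-induced genes was near that background. The difference between the 2 sides was not tested.

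Around the members, 2 genes of the related pathway lists fell past the adjusted threshold. Slc16a7, a monocarboxylate transporter that carries lactate and pyruvate, read 3.77 and 3.24 in the knockout against 6.98 and 7.12, a fall on the deposited scale (log2 difference -3.55, SE 0.25, adjusted p = 0.034). Fbp2, the muscle-type fructose bisphosphatase of gluconeogenesis, read 4.65 and 4.61 against 7.11 and 7.25, likewise a fall (log2 difference -2.55, SE 0.17, adjusted p = 0.032). Neither knockout level stood above that of silent genes, so these differences have no exact fold. Leaving out 1 array at a time left differences of -3.81 to -3.28 for Slc16a7 and -2.62 to -2.49 for Fbp2, with adjusted p between 0.075 and 0.40. Those fits have 1 residual degree of freedom, and in limma 0 of all clusters passed in any of them (2124 to 6570 at unadjusted p under 0.05). Slc16a1, the widely expressed lactate transporter, read 6.18 and 5.93 against 5.04 and 5.18, a difference of 0.94 in the other direction (SE 0.19, adjusted p = 0.11).

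Of 21 other measured glycolysis genes, Slc16a7 fell, 0 rose and 20 did not pass, with a median of -0.03. Unadjusted, 4 were lower and 1 higher, where 7.7% and 14.6% of all clusters were. That background holds for the unadjusted counts of the lists below as well. The 21 genes include Pgk2, whose cluster, like that of Pkm, had 0 of 20 neighbours on the gene's chromosome and whose groups overlapped. Of 7 gluconeogenesis genes, Fbp2 fell and 6 did not pass (median -0.12). None of 5 pentose phosphate genes passed in limma (median -0.27), and 1 was lower without adjustment: Pgd, phosphogluconate dehydrogenase, at 7.50 and 7.33 against 8.16 and 8.16. None of 14 citric acid cycle genes passed (median -0.08, 0 at unadjusted p under 0.05 in either direction). Without overlap 7 were lower and 2 higher, where 20.9% and 36.2% of all clusters and 30.6% and 27.7% of the brighter ones were. None of 7 genes of pyruvate dehydrogenase and mitochondrial pyruvate entry passed; their median was 0.20 and Pdk4 alone had an unadjusted p under 0.05.

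Of 9 measured parts of the HIF machinery outside the members, 0 passed, 2 were lower and 1 higher unadjusted, and the median was 0.12. Epas1, the HIF alpha subunit known from endothelium, read 4.55 and 4.53 against 6.04 and 5.18, and Hif1an, the asparagine hydroxylase of HIF, 4.02 and 4.61 against 5.47 and 5.09. Arnt2 read 5.30 and 5.18 against 4.66 and 4.64. The knockout values of Epas1 and Hif1an and the wild-type values of Arnt2 were in the range of silent genes, so the sizes of these differences are not exact. The endothelial marker Pecam1 read 4.63 and 4.29 against 6.94 and 5.67, and like Epas1 it was highest on wild-type array 1. Of the 10 endothelial markers, 4 were lower and 1 higher without overlap, where 20.9% and 36.2% of all clusters were, and 5 overlapped. The part of endothelial cells in the Epas1 difference was not tested. In bulk RNA, fewer cells of a type and less RNA per cell cannot be told apart.

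The 26 other measured hypoxia-induced genes pointed both ways, with 0 calls, 2 lower and 4 higher unadjusted and a median of -0.03. Plod2, a collagen lysyl hydroxylase, read 7.59 and 7.41 against 6.15 and 6.07 (2.62-fold higher, adjusted p = 0.070). It passed in only 3 alternatives, with adjusted p between 0.026 and 0.048. Edn1, which encodes the vasoconstrictor endothelin, read 5.47 and 5.53 against 4.67 and 4.31, its wild-type values in the range of silent genes. Hmox1, the stress-induced haem oxygenase, read 7.22 and 7.17 against 6.47 and 6.38. Of 8 regulators of the Myc and glucose-responsive network, 0 passed in limma and 1 was lower unadjusted: Max, the partner of Myc, at 9.14 and 9.10 against 9.84 and 9.98. Myc itself read 7.02 and 6.60 against 6.18 and 6.39.

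**Figure D4:**
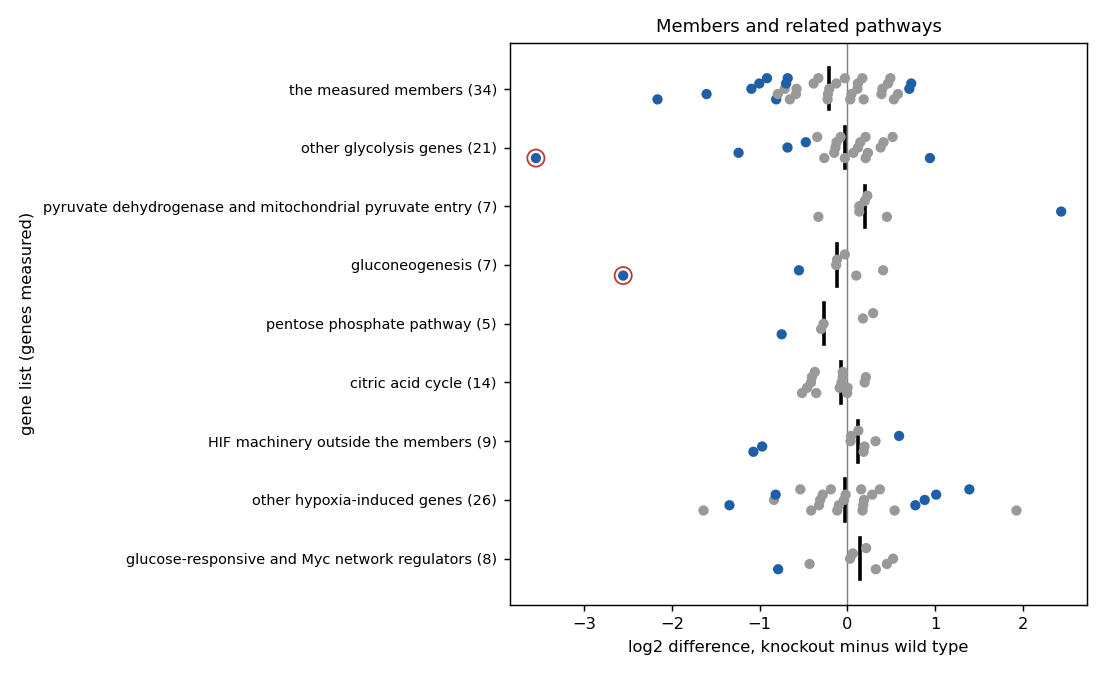
Log2 differences, knockout minus wild type, of the 34 measured members and of the genes of 8 related lists; each dot is a gene, blue where its unadjusted p was under 0.05, and ringed in red where its adjusted p was under 0.05. Black bars are list medians, -0.21 for the members; the 2 ringed genes are Slc16a7 and Fbp2.

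Markers of other cells and states also differed between arrays. For their counts the background is 20.9% of all clusters lower and 36.2% higher without overlap. Of 17 fibroblast and feeder markers, 0 passed, 4 were lower and 1 higher without overlap and 12 overlapped. Their summed intensity (log2) was 12.59 and 13.08 in the knockout and 13.00 and 12.81 in the wild type, and the median of their differences, knockout array 2 minus array 1, was 0.51. Members that were higher on knockout array 2 by over 0.6 were Adm, P4ha2, Eno2 and Hif1a, besides the cluster annotated to Pkm. Those lower on it by over 0.6 were Egln3, Aldoc, Ndrg1, Ankrd37, Slc16a3, Bnip3l and Car12. Slc2a1, Tpi1, Pfkl, Aldoa, Pfkfb3, Hk1, Hk2, Ero1l, Bhlhe40 and Car9 differed by 0.21 or less between the knockout arrays. The summed intensity of the general epithelial markers was 12.08 and 11.88 against 12.65 and 12.59, that of the superficial markers 10.12 and 9.37 against 13.16 and 13.36, and that of the basal markers 8.30 and 7.93 against 12.28 and 12.41. Of 10 endothelial markers 4 were lower and 1 higher without overlap, with 7.86 and 7.63 against 9.01 and 8.27. Of 8 measured proliferation genes 6 were lower and 1 higher without overlap, with 10.75 and 10.35 against 10.89 and 11.16. Of 10 immediate early and stress genes 2 were lower and 6 higher without overlap, with 10.70 and 10.46 against 9.88 and 9.98. Smooth muscle markers had 0 of 8 lower and 4 higher without overlap (8.86 and 8.97 against 8.62 and 7.95), and leukocyte markers 2 of 9 lower and 4 higher (9.02 and 8.70 against 8.49 and 8.16). Of the 9 leukocyte markers, only Cd68 read above the level of silent genes on any array, at 8.58 and 8.12 against 7.68 and 7.255. Log2 intensities have no true 0, so no marker can be called absent. The part of these cells and states in the members' differences was not tested.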

How the data were processed

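RNA of p63 knockout and wild-type colonies was hybridised to 4 Affymetrix Mouse Exon 1.0 ST arrays. The values are log2 gene-level intensities as deposited; the log2 scale was read from their range (0.79 to 13.9). The submitters' processing notes name Partek, Affymetrix Expression Console and build mm9; their versions and the summarisation were not given in the sources used here, nor was any normalization between arrays. Symbols came from GEO's platform annotation (14996 clusters with 1 symbol, 1019 with several, 7317 with none), checked against RefSeq by Entrez identifier.

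The groups were compared over all 23332 clusters by lmFit and eBayes of limma 3.58.1 (R 4.3.3), as a two-sided test without covariates or filter, with Benjamini-Hochberg adjustment over all clusters; residual degrees of freedom were 2 and prior ones 2.2. The fit was tested on simulated data. The array number limits the precision. Members, lists, roles and tests were chosen with earlier results of these data known. Values on every array are given for members with an adjusted or unadjusted p under 0.05 and the 12 largest differences; of related lists, for calls and otherwise up to 3 genes with the smallest p. Ratios of family members, the brighter clusters as a background and the placement of clusters by number were added after the data were seen. Motifs were counted in RefSeq promoter windows of build GRCm38.p6. Alternatives covered normalization, filters, variance models, the replicate number as a block, and leaving out each array.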

Additional observations from a re-analysis of the deposited data

How the results depend on the processing

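The files hold no flags of signal over background, so dim members could not be set apart by detection. The number of clusters past the adjusted threshold was 123 as reported, 362 when the dimmest clusters, under the 25th percentile, were left out, 524 when those under the median were, 303 with a mean-variance trend and 0 with the replicate block. Leaving out 1 array at a time gave 0 to 0. The members past it were 0 as reported and 1 without clusters below the median (Slc2a1). The members lower at unadjusted p under 0.05 were 8 as reported and ran from 4 to 9 when arrays were left out; those higher were 2 as reported, 1 after quantile normalization, with arrays centred on their medians, with robust eBayes and with the replicate block, and ran from 0 to 4 when arrays were left out. Of all clusters, 8.91% were higher by that rule after quantile normalization and 13% with arrays centred on their medians. The share was 14.2% with robust eBayes and 12.8% with the replicate block. The members' median of -0.21 ran from -0.22 to -0.10 when arrays were left out. The labels give both groups replicate numbers 1 and 2 and do not say what a number shares; same-numbered arrays deviated together with a correlation of 0.019 over clusters, and the replicate block moved no member past the adjusted threshold, while the calls of Slc16a7 and Fbp2 ended there with every other call (adjusted p = 0.14 for both). No member had more than 1 cluster, so averaging clusters of a gene left every value as it was. Leaving out the cluster annotated to Pkm was chosen after seeing the data and moved none of the members' counts at unadjusted p under 0.05.

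Of the 34 members, 28 kept their direction in every alternative run. The exceptions reversed when an array was left out, with these ranges over the 4 such fits: Adm -1.87 to 0.29 (positive leaving out knockout array 1), Aldoc -1.18 to 0.021 (positive leaving out knockout array 2), Mxi1 -0.13 to 0.19 (negative at -0.13 leaving out knockout array 2, -0.03 leaving out wild type array 1), P4ha1 -0.16 to 0.25 (-0.16 leaving out knockout array 2, -0.13 leaving out wild type array 2), Pdk3 -0.10 to 0.32 (-0.10 leaving out knockout array 2, -0.0080 leaving out wild type array 1) and Pfkfb4 -0.15 to 0.093 (0.093 leaving out knockout array 2, 0.06 leaving out wild type array 2). Mxi1 was also at -0.0070 with arrays centred on their medians. The cause was not tested.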
